A study of Mus musculus with 2 samples.

Results

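S2 erythroblasts are the fetal liver cells that carried an intermediate amount of Ter119 and a large amount of CD71 at their surface. They were 1314 of the 7863 cells (16.7%, exact binomial 95% interval 15.9 to 17.6%) in a CITE-seq experiment, which reads the mRNA of each cell in 1 cDNA library and its surface proteins, through antibodies that carry DNA tags, in 1 antibody library. All 7863 cell barcodes were present in both libraries, so the data describe 1 pool of cells and hold no replicate. The cells were taken from pooled livers of C57BL/6 mouse embryos at e13.5, with no other genotype or treatment. They were stained for Ter119, Ter119+ cells were removed with magnetic beads, and as many Ter119+ cells as remained in the negative fraction were returned before the other antibodies were added. The shares of cells by Ter119 below are therefore shares of this rebalanced pool.

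Members were chosen by their measured values. A cell of S2 had 300 to 5000 detected genes and at most 9% of its UMIs (unique molecular identifiers, each standing for 1 captured mRNA molecule) from mitochondrial genes, which left 7355 cells. Its summed count for the 5 lineage antibodies, against CD11b, CD41, Ly6G/6C, CD45R and CD3e, was at most 95, which left 6508 cells. A Ter119 count from 25 to 88 left 1536 cells and a CD71 count of at least 763 left 1317. The last condition, that embryonic Hbb-y did not exceed the adult β-globins Hbb-bs and Hbb-bt together, removed 3 cells. S2 was compared with its neighbours under the same limits, namely 616 S1 cells with Ter119 below 25, 852 S3 cells with Ter119 above 88, and 205 cells with intermediate Ter119 but CD71 below the limit (CD71-lower cells).

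In fetal liver, committed erythroid progenitors divide a limited number of times while they load hemoglobin, lose their progenitor proteins and finally expel the nucleus. Heme made in the mitochondria and in the cytoplasm is joined to α- and β-globin chains, so the demand for iron, which enters through the transferrin receptor CD71, is high. Ter119 marks an erythroid surface molecule that accumulates as these cells mature, while the receptor tyrosine kinase cKit and the adhesion receptor CD44 decline.

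The antibody tags define S2, so their sequences are given as deposited, in the 5′ to 3′ direction. Ter119 and CD71 set the borders, whereas cKit and CD44 were not used by the rule.
Ter119 tag: gaggcgattgat
CD71 tag: cgaagaaggagt
cKit tag: aagcgcttggca
CD44 tag: gtctagacttcg

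**Figure D1:**
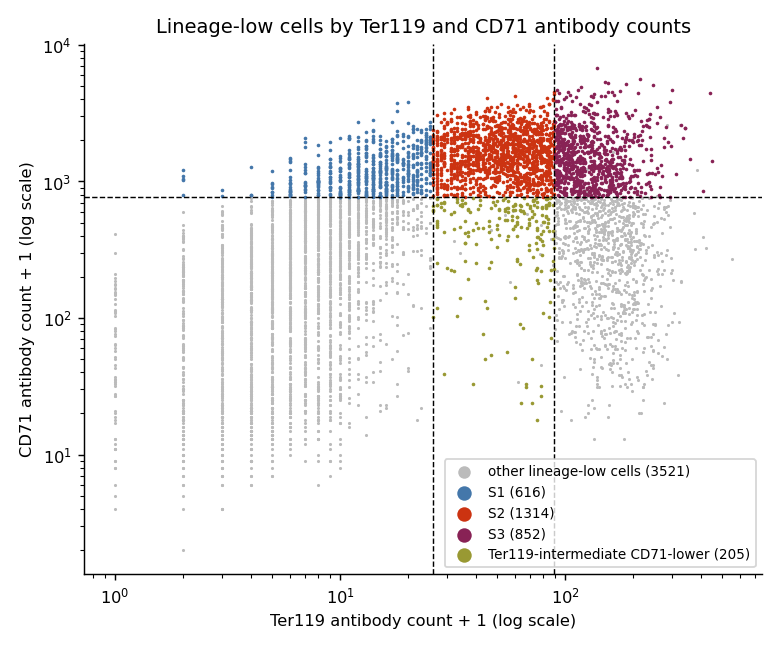
Antibody counts per cell for the cells under the lineage limit, with Ter119 on the horizontal and CD71 on the vertical axis (log scales, 1 added to each count) and the limits of 25, 88 and 763 counts as dashed lines. The 1314 S2 cells fill the upper middle field between the 616 S1 and the 852 S3 cells, above the 205 CD71-lower cells.

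The median Ter119 count was 14 in S1, 51 in S2 and 124 in S3, and the median CD71 count was 1149.5, 1614 and 1423.5. These follow from the rule. cKit and CD44, which the rule did not use, were lower in S2 than in S1 and lower again in S3. The median cKit count was 92.5 in S1 (quartiles 43 and 192.75), 23 in S2 (15 and 42), 17 in S3 (13 and 25) and 14 in the CD71-lower cells. The median CD44 count was 210 in S1, 122 in S2, 81 in S3 and 58 in the CD71-lower cells. With antibody counts divided by cDNA depth in the same cells, an alternative chosen after the data were seen, the medians in S1, S2 and S3 lay closer together, at 53.3, 23.5 and 20.9 for cKit and 120, 109 and 101.02 for CD44. Where the limits were also applied to the scaled counts, which left 879 cells in S2, they were 38.0, 22.0 and 21.0 for cKit and 128, 115 and 96.3 for CD44. The populations overlapped: 117 S2 cells (8.90%) were above the S1 median for cKit and 251 (19.1%) above the S1 median for CD44. The control IgG was counted in only 2.59% of S2 cells, with a median of 0.

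S2 held 9467022 UMIs, against 6318767 in S1, 4812295 in S3 and 1021676 in the CD71-lower cells. A median S2 cell had 6056 UMIs from 1823 genes, between 10176.5 UMIs from 2873 genes in S1 and 4616.5 UMIs from 1093 genes in S3. Globins took 2.74% of all UMIs in S1, 12.9% in S2 and 34.8% in S3. Gene levels are therefore given as counts per 1000000 non-globin UMIs summed over the cells of a population (CPM), and globin levels per 1000000 of all UMIs. Fewer molecules were captured per cell at each step, with 9977 non-globin UMIs per cell in S1, 6276 in S2 and 3683 in S3. Smaller cells, less mRNA per cell and less efficient capture cannot be told apart in these data.

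At both Ter119 limits the cells just inside were close to those just outside. The 166 S2 cells within 20% of the lower Ter119 limit had 4.86% of their UMIs in globins and an Alas2 level of 178 CPM, and the 123 cells just below it had 4.01% and 148 CPM. At the upper limit, 272 S2 cells had 23.2% globin UMIs and 1323 CPM of Alas2, and 233 cells just above it had 26.8% and 1588 CPM. At the CD71 limit the cells differed more, with 14.5% globin UMIs and 739 CPM of Alas2 in 103 cells inside and 20.7% and 1089 CPM in 70 cells outside. At the lineage limit 31 cells inside had 9.68%, 471 CPM and a median of 9692 UMIs, and only 8 cells lay just outside, with 4.45%, 104 CPM and 17720 UMIs.

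The erythroid label was checked against Tfrc, Alas2 and Hemgn. Tfrc, which encodes CD71, was at 233 CPM in S1, 363 CPM (95% interval 350 to 376) in S2 and 473 CPM in S3. Alas2, the first and rate-limiting enzyme of erythroid heme synthesis, was at 94.0, 625 (608 to 643) and 2292 CPM. Hemgn, a nuclear protein of haematopoietic cells that is regulated by GATA1, was at 503, 1332 and 2200.3 CPM. Summed, the 3 markers reached 2321 CPM in S2, against 82.2 CPM in 164 hepatocyte-rich cells with Ter119 below 25 and 99.6 CPM in 541 lineage-antibody-positive cells, which were above the lineage limit and below both the Ter119 limit of 25 and the CD71 limit of 763. The references share 44 cells. They give a measure of free RNA, since they contain UMIs of erythroid genes at low levels, but low Tfrc in cells chosen for low CD71 is in part built in. S2 was itself chosen for high CD71, so its Tfrc level is no independent check of the label.

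By cells, Alas2 was detected in 46.6% of S1, 86.2% of S2 and 98.6% of S3 cells, against 20.1% of hepatocyte-rich and 15.0% of lineage-antibody-positive cells, although these had more UMIs per cell (medians 12778 and 7978, against 6056 in S2). Hemgn was detected in 98.1% of S2 cells and in 22.6% and 26.3% of the reference cells. Tfrc was detected in 81.4% of S2 cells and in 26.2% and 21.3% of the reference cells. Ptprc, which encodes the leukocyte protein CD45, was at 0.849 CPM in S2, against 48.1 CPM in the lineage-antibody-positive cells. The transcripts of the antibody targets followed the proteins only in part. Cd44 was at 37.1 CPM in S1, 16.1 CPM in S2 and 15.3 CPM in S3, whereas Kit was at 9.93, 5.82 and 9.56 CPM and was too sparse in S2 to order with S3.

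The step from S1 to S2 was compared for 7086 genes with at least 100 UMIs over both populations. A gene is called higher or lower where the ratio of its CPM passed 1.5-fold, and intervals (exact, 95%) cover counting error only, since cells of 1 library are not replicates and no test between conditions was possible. By this measure 497 genes (7.01%) were higher in S2 and 1081 (15.3%) lower, around a median log2 ratio of -0.16. With globin UMIs counted in the total, the median was -0.31 and the split was 325 higher and 1793 lower. Per cell, 94.4% of the genes had fewer UMIs in S2 than in S1, so the directions below describe the composition of the non-globin mRNA. Past the limit 102 of the 7086 genes were higher and 5122 lower in UMIs per cell. With globin UMIs in the total, the genes higher in S2 numbered 8 of 8 for heme synthesis, 7 of 16 for the surface, 6 of 13 for the skeleton and 5 of 14 for ubiquitin, and in UMIs per cell 2, 3, 2 and 2. In the same lists 0, 0, 1 and 0 were lower with globin UMIs in the total, and 0, 2, 3 and 1 in UMIs per cell. Of the 20 transcription factors 7 were higher and 3 lower with globin UMIs in the total, and 3 and 6 in UMIs per cell. The lower genes numbered 22 of 24 for ribosome biogenesis, 7 of 11 for heat shock, 8 of 16 for glycolysis and 2 of 26 for DNA replication with globin UMIs in the total, and 24, 10, 12 and 6 in UMIs per cell. The higher genes of these 4 lists numbered 0, 0, 1 and 1 with globin UMIs in the total, and 0, 0, 1 and 0 in UMIs per cell. On these 2 scales, genes of G2 and mitosis were higher in 5 and 1 of 24 cases and lower in 0 and 3. Antioxidant genes were higher in 2 and 0 of 18 cases and lower in 3 and 10. Of the 8 cyclin and CDK genes described below, 5 and 2 were higher and 3 and 3 lower, and of the 10 mitochondrial precursor and heme transport genes 4 and 2 were higher and 1 and 2 lower.

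Heme synthesis was higher in S2 as a whole, with 8 of 8 compared enzymes past 1.5-fold and a median log2 ratio of 1.03. Alas2 was 6.65-fold (6.10 to 7.26) above S1. Ppox, which oxidises protoporphyrinogen, was 2.52-fold higher (66.4 to 167 CPM), and ferrochelatase Fech, which inserts iron into the ring, 2.36-fold higher (626 to 1477 CPM). Uros, Alad and Cpox differed less, at 1.74-fold, 1.78-fold and 1.73-fold. Of 10 genes for mitochondrial precursors and heme transport, 4 were higher and 1 lower. Slc25a37 (mitoferrin 1), which brings iron into mitochondria, was 3.67-fold higher (281 to 1029 CPM), Fam210b 2.83-fold, Slc25a39 1.88-fold and Abcb10 1.84-fold. The lower gene was Pgrmc1, a heme-binding membrane protein, at 0.574-fold. Tmem14c, a porphyrinogen transporter of the inner mitochondrial membrane, was at 2131 CPM in S1 and 2859 CPM in S2, within the limit.

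Of 13 genes of iron handling, 3 were higher in S2: Tfrc (1.56-fold, 1.46 to 1.66) and the ferritin chains Fth1 (6181 to 10203 CPM) and Ftl1 (5924 to 10533 CPM). With globin UMIs in the total 1 of the 13 was higher and 1 lower, in UMIs per cell 0 and 8, and with antibody counts scaled to cDNA depth 1 and 0. Per cell, Tfrc had 2.33 UMIs in S1 and 2.28 in S2, so its direction turned on that scale. Steap3, an endosomal ferrireductase, was at 38.1 and 34.6 CPM.

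Of 16 genes of the red cell surface 10 were higher and 0 lower, and of 13 genes of the membrane skeleton beneath it 8 were higher and 0 lower. Slc4a1, the anion exchanger band 3, was 3.86-fold higher (126 to 486 CPM). Dmtn (dematin) was 2.80-fold and Epb42 (protein 4.2) 2.57-fold higher. Aqp1, a water channel, and Slc14a1, a urea transporter, were at 53.2 and 40.8 CPM in S1 and at 48.5 and 37.5 CPM in S2, within the limit. Of 16 genes of glucose use 2 were higher, the transporter Slc2a1 (4.38-fold, 35.6 to 156 CPM) and Bpgm (1.54-fold), and 2 lower, Ldha (0.593-fold) and Pkm (0.580-fold).

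Among 20 erythroid transcription factors, 8 were higher and 1 lower. E2f2 was 3.0-fold higher (29.0 to 86.9 CPM), Nfe2, a globin and heme gene activator, 2.76-fold (50.6 to 139 CPM), Tfdp2, a partner of E2F proteins, 2.24-fold and Foxo3 1.88-fold. Cbfa2t3, a corepressor of GATA1 and TAL1 complexes, was lower at 0.611-fold, and the γ-globin repressor Bcl11a was at 234 CPM in S1 and 163 CPM in S2, within the limit. Of 8 progenitor genes none was higher and 4 were lower: Myb, which keeps progenitors dividing, at 0.466-fold (27.3 to 12.7 CPM), Cd44 at 0.435-fold, Kit at 0.586-fold and Myc at 0.557-fold. In UMIs per cell 7 of the 8 were lower, and with antibody counts scaled to cDNA depth 2. By CPM, Myb was higher again in S3, at 25.2 CPM (S3 over S2 1.98). It was the 1 call among 7 progenitor genes at that step, with 0 lower. With globin UMIs in the total these counts were 0 and 0, and in UMIs per cell 0 and 4. The call of Myb as higher in S3 therefore held on neither scale. Stat5a, which signals from the erythropoietin receptor, was lower at 0.257-fold (14.6 to 3.76 CPM) although Cish, a STAT5 target, was 2.47-fold higher (4.72 to 11.6 CPM). With antibody counts scaled to each cell's cDNA depth before the limits were applied, the Stat5a ratio was 1.08.

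Of 8 D-type cyclins, their kinases and CDK inhibitors, 5 were higher and 3 lower. The inhibitors Cdkn2d, Cdkn2c and Cdkn1b were 4.43-fold, 2.69-fold and 1.90-fold higher, the retinoblastoma gene Rb1 2.03-fold and Ccnd3, the cyclin D of late erythroid divisions, 2.06-fold (453 to 932 CPM). The kinases Cdk6 and Cdk4 were lower at 0.386-fold and 0.631-fold and Ccnd2 at 0.524-fold. From S2 to S3, 4 of 8 of these genes were higher and 1 lower. These counts were 2 and 2 with globin UMIs in the total, and 2 and 3 in UMIs per cell. Cdk6 was among the higher by CPM (1.65-fold, 26.1 to 43.0 CPM), but its ratio was 0.730 with scaled antibody counts. Of 24 genes of G2 and mitosis, 8 were higher and 0 lower, with Nusap1, a spindle protein, at 2.64-fold and Ube2c, which serves the anaphase-promoting complex, at 2.06-fold. Of 26 DNA replication genes, 3 were higher and 0 lower. They were Rrm2, a subunit of ribonucleotide reductase, at 1.90-fold (810 to 1542 CPM), Slbp, which binds the stem-loop of histone mRNAs, at 1.63-fold (946 to 1540 CPM), and the cyclin gene Ccne2 at 1.54-fold.

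Of 24 genes of ribosome biogenesis none was higher and 19 were lower, with a median log2 ratio of -0.76. Wdr12, Nip7 and Nop16, which act in pre-rRNA processing and subunit assembly, were at 0.525-fold, 0.572-fold and 0.567-fold. Of 85 cytoplasmic ribosomal protein genes none passed the limit in either direction, with a median log2 ratio of -0.05. In UMIs per cell 76 of the 85 were lower, with a median of -0.72, against 5122 of all 7086 genes and a median of -0.82. Of 11 heat-shock chaperones 3 were lower, all mitochondrial: Hspd1 (0.501-fold, 1398 to 700.5 CPM), Hspe1 (0.563-fold, 2109 to 1188 CPM) and Hspa9 (0.609-fold). The lower chaperones numbered 7 thinned, 7 by the mean over cells, 6 with inner borders and 6 with scaled antibody counts. Over all genes the lower calls in these settings numbered 579, 1659, 851 and 598. The chaperone list kept its 11 genes in each setting. How many of all genes were compared after thinning, with inner borders or with scaled antibody counts is not given here. The list and all-gene counts can therefore not be compared as shares in those settings. The growth regulator Myc went from 69.0 to 38.4 CPM, whereas its antagonists Mxd1 and Mxd3 were 3.34-fold and 2.93-fold higher. Of 11 genes of the ATF4 response 3 were higher (Ppp1r15a 3.39-fold, Eif2ak1 1.79-fold and Ddit3 1.64-fold) and 2 lower, Psat1 and Phgdh, enzymes of serine synthesis, at 0.472-fold and 0.583-fold. These counts were 2 and 2 with globin UMIs in the total, and 1 and 5 in UMIs per cell.

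Of 14 ubiquitin genes known from erythroblasts, 9 were higher and 0 lower, led by Ube2l6 (3.74-fold, 116 to 435 CPM) and Trim10 (2.74-fold, 238 to 653 CPM). Of 16 genes of autophagy and mitophagy 4 were higher: Atg4d (1.86-fold), Gabarapl2 (1.69-fold), Gabarap (1.56-fold) and Bnip3l (1.65-fold), which marks mitochondria for removal. The higher and lower genes numbered 8 and 1 with every cell thinned to 2000 UMIs, 7 and 2 by the mean over cells, 7 and 1 with the borders moved inwards, 2 and 2 with globin UMIs in the total and 0 and 4 in UMIs per cell. Proteasome subunits stayed within the limit in 35 of 36 cases, the exception being the immunoproteasome subunit Psmb10 at 0.445-fold. In UMIs per cell 19 of the 36 were lower, as were 5122 of all 7086 genes. Of 18 antioxidant genes 6 were higher and 1, Prdx6 (0.633-fold), lower. Gpx1 was at 2373 CPM in S1 and 4758 CPM in S2, and Prdx2 at 2594 and 4758 CPM.

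The largest ratio of S2 over S1 was that of Slfn14, a ribosome-associated endoribonuclease, at 1.46 CPM in S1, 18.2 CPM in S2 and 131 CPM in S3 (S2 over S1 12.4, interval 6.37 to 27.7). It was followed by Apol11b (10.5-fold), Fn3k, a kinase that removes sugar adducts from proteins (8.83-fold, 6.35 to 56.0 CPM), Fam214b (7.82-fold), Tinagl1 (6.87-fold), Alas2, Runx1t1 (5.96-fold) and Nacad (5.33-fold). The smallest ratios were those of Stat5a, St6galnac4 (0.263), Ddah2 (0.311), Msto1 (0.315) and Casc4 (0.318).

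**Figure D2:**
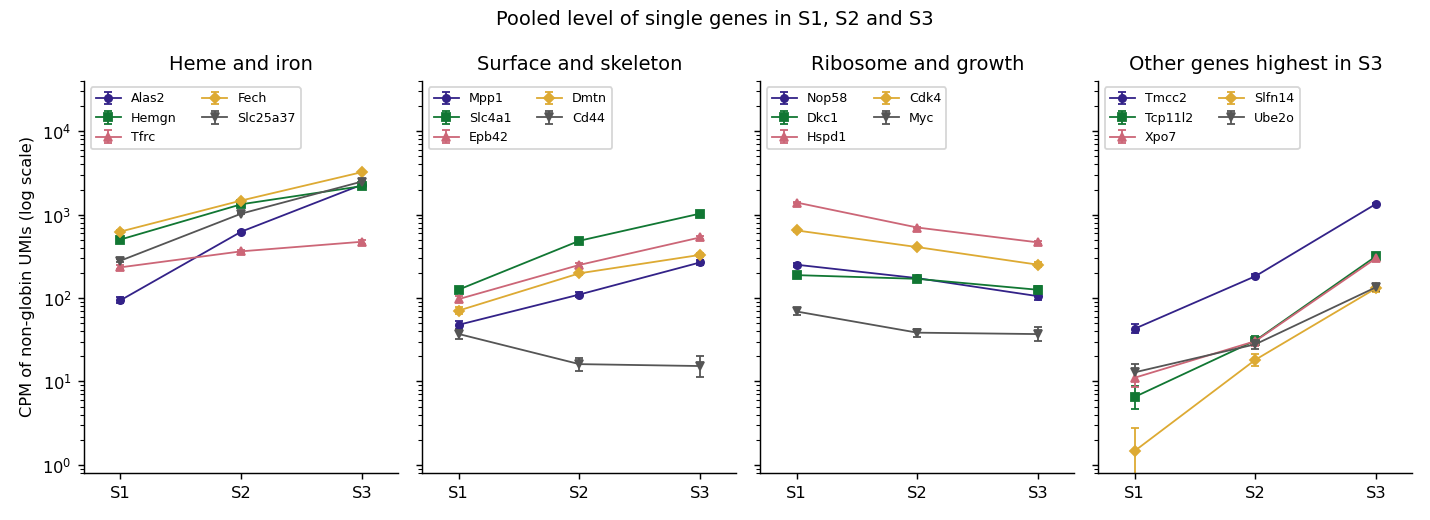
CPM of 20 named genes in S1, S2 and S3 on a log axis, with points for the pooled level and bars for the exact 95% counting interval. Alas2 goes from 94.0 to 625 and 2292 CPM and Slfn14 from 1.46 to 18.2 and 131 CPM, while Hspd1 goes from 1398 to 700.5 and 465 CPM.

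The step from S2 to S3 was compared for 6431 genes. Of these 606 (9.42%) were higher in S3 and 545 (8.47%) lower, around a median log2 ratio of -0.14. With globin UMIs in the total the split was 257 higher and 3057 lower and the median was -0.56. In UMIs per cell 124 genes were higher and 4943 lower, with a median of -0.91. Without the called doublets, which were 1.45% of S2 and 4.34% of S3, 978 genes were lower in S3 and 650 higher.

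By CPM, 5 of 8 heme enzymes were higher in S3 than in S2. With globin UMIs in the total 2 were higher, and in UMIs per cell 1 was higher and 1 lower. Alas2 was 3.66-fold (3.54 to 3.80), Fech 2.19-fold, Urod 1.84-fold and Ppox 1.76-fold higher, whereas Uros was at 223 CPM in S2 and 218 CPM in S3. Hemgn was 1.65-fold higher by CPM, but it had 8.36 UMIs per cell in S2 and 8.10 in S3. Slc25a37 was 2.43-fold and Slc25a39, which imports glutathione into mitochondria, 2.61-fold higher. Tmem14c was at 2859 CPM in S2 and 1971 CPM in S3, so that by CPM its highest level of the 3 populations was in S2, with both steps within the limit. It had 13096 UMIs in 616 S1 cells, 23575 in 1314 S2 cells and 6185 in 852 S3 cells. Per cell its order was therefore falling.

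Of 16 surface genes 8 were higher and 1, Aqp1 (0.493-fold), lower, and of 13 skeleton genes 8 were higher. With globin UMIs in the total 2 surface genes were higher and 1 lower, and 4 and 0 of the skeleton. In UMIs per cell these counts were 0 and 2, and 1 and 2. Slc4a1 reached 1029.9 CPM in S3 (2.12-fold), and Epb41 (protein 4.1) was 2.87-fold higher after 1.61-fold at the first step. Of 20 transcription factors 8 were higher and 0 lower (4 and 2 with globin UMIs in the total, 0 and 7 in UMIs per cell). Among the higher were Tfdp2 (2.52-fold), Foxo3 (2.04-fold), Nfe2 and E2f2 (both 2.02-fold). Of 14 ubiquitin genes 11 were higher and 0 lower (9 and 0 with globin UMIs in the total, 4 and 1 in UMIs per cell), with Ube2h at 4.89-fold and Ube2o, which ubiquitinates ribosomal proteins during reticulocyte maturation, at 4.84-fold (27.9 to 135 CPM). Of 15 autophagy genes 8 were higher and 0 lower (2 and 3 with globin UMIs in the total, 0 and 5 in UMIs per cell). The antiapoptotic Bcl2l1 (Bcl-xL) was 5.51-fold higher (50.7 to 279 CPM), Slc2a1 4.47-fold (156 to 699 CPM) and Bpgm, which makes the 2,3-bisphosphoglycerate that lowers the oxygen affinity of hemoglobin, 4.81-fold.

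Replication genes were lower in 8 of 26 cases and higher in none. The lower genes numbered 15 by the mean over cells, 24 with globin UMIs in the total and 26 in UMIs per cell. Over all genes the lower calls numbered 1439, 3057 and 4943 on these scales, against 545 by CPM. Mcm4, a subunit of the replicative helicase, was at 153 CPM in S1, 179 CPM in S2 and 104 CPM in S3 (S3 over S2 0.578). The licensing factor Cdt1 was at 0.598-fold. G2 and mitosis genes were higher in 5 of 24 cases and lower in 0 (2 and 0 with globin UMIs in the total, 0 and 4 in UMIs per cell). The 5 were Ube2c at 2.41-fold (963 to 2316 CPM), Nusap1 at 2.04-fold, Cenpf at 1.77-fold, Cenpe at 1.53-fold and Mki67 at 1.52-fold. Of 22 ribosome biogenesis genes 4 were lower (20 with globin UMIs in the total and 22 in UMIs per cell), Nop56 at 0.577-fold, Nop58 at 0.607-fold, Nop2 at 0.644-fold and Nolc1 at 0.649-fold. Without called doublets 14 were lower, and the heat-shock genes that were lower numbered 7 in place of 2 of 11.

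The largest ratios of S3 over S2 belonged to Tcp11l2 (10.3, from 30.9 to 318 CPM), Xpo7, a nuclear exportin used when erythroblast nuclei condense (9.89, from 30.4 to 301 CPM), Hsd3b6 (9.05), Sowaha (7.51), Tmcc2 (7.38, from 183 to 1349 CPM) and Slfn14 (7.22). Ccng2 (6.08) and the protease Lgmn (5.78) followed. The smallest were those of Arl6 (0.386), Zdhhc2 (0.394), Casp8 (0.395), Exoc1 (0.404) and Nme7 (0.408).

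**Figure D3:**
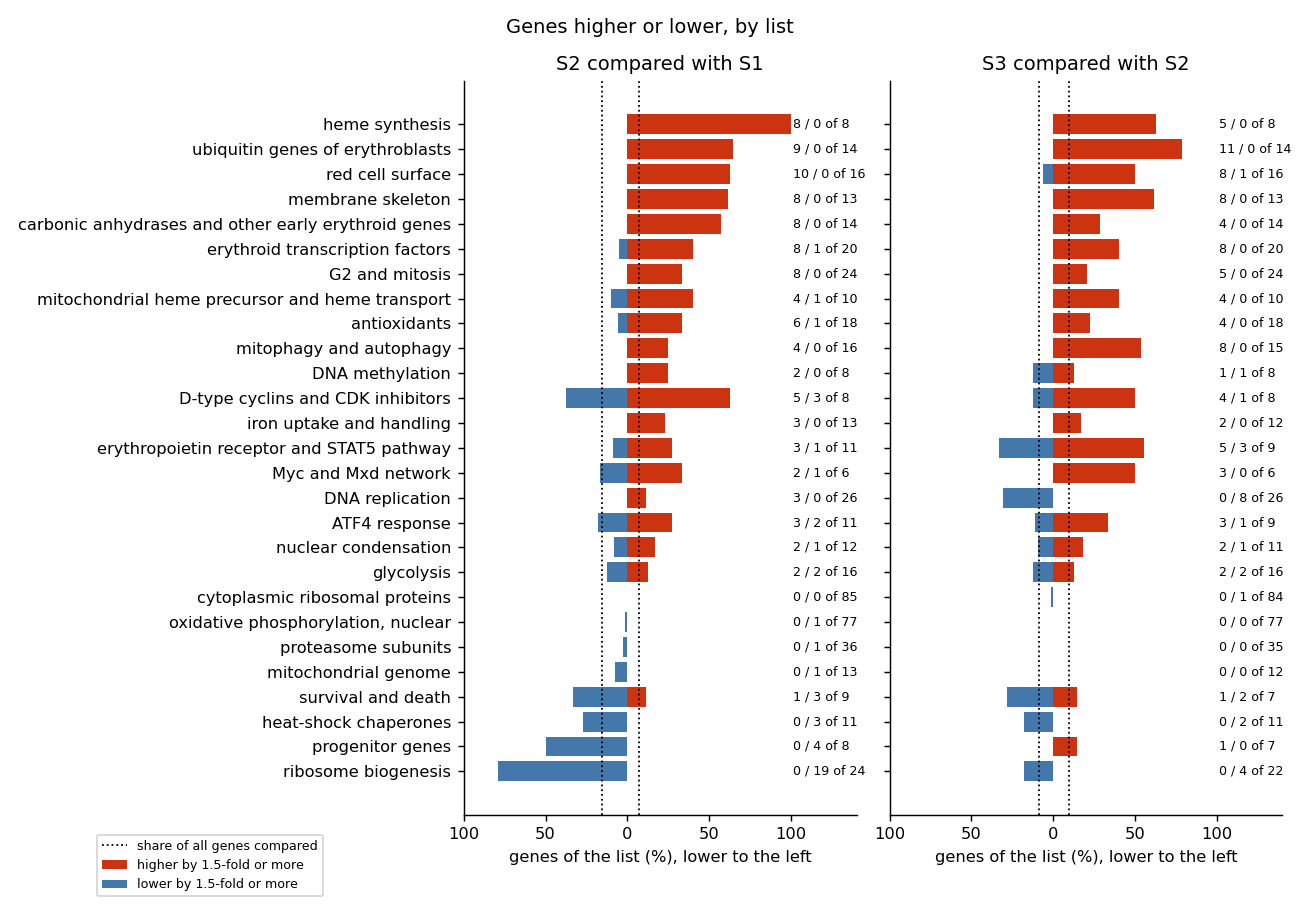
Percent of the compared genes of each list that were higher (bars to the right) or lower (bars to the left) by 1.5-fold, for S2 over S1 and S3 over S2, with their numbers at the right and the shares of all compared genes as dotted lines. All 8 heme enzymes lie to the right and 19 of 24 ribosome biogenesis genes to the left at the first step.

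By CPM, genes that differed at least 2-fold between S1 and S3 mostly had S2 levels in between. The populations are consecutive ranges of Ter119, and these genes were chosen by their outer levels. Both favour such a position, so it is in part built in. Among 632 genes at least 2-fold higher in S3 than in S1, the S2 level stood at a median of 48.5% (quartiles 35.4 and 59.1) of the log distance, and 598 of them had their S2 level between the others. Among 891 genes at least 2-fold lower in S3 it stood at 55.6% (42.0 and 70.9), with 833 between. Ordered by level over all 3 populations, 14 of 14 ubiquitin genes, 23 of 24 G2 and mitosis genes and 14 of 16 surface genes had rising levels in the order S1, S2, S3, as did 20.3% of the 7431 genes compared over the 3 populations, and 24 of 24 ribosome biogenesis genes and 10 of 11 heat-shock genes had falling levels, as did 48.8%. The rising order depended on the scale, which was examined after the data were seen. It held with globin UMIs in the total for 11 ubiquitin, 7 G2 and mitosis and 13 surface genes (8.52% of all genes), and in UMIs per cell for 6, 3 and 4 (2.93%), where 18 of the 24 G2 and mitosis genes had the falling order. The falling order held for all 24 ribosome biogenesis and all 11 heat-shock genes on both scales, as for 72.2% and 90.8% of all genes.

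Of 26 DNA replication genes 19 had their highest CPM in S2, as did 14.4% of the 7431 genes. On the scale with globin UMIs in the total 17 did (14.0% of all genes), and in UMIs per cell 2, while 24 had the falling order. By CPM the differences were small, since the median log2 ratio of the list over S1 was 0.33, and it was 0.17 with globin UMIs in the total and -0.34 in UMIs per cell. By any size, 16.5% of the genes were lowest in S2. Past 1.5-fold on both sides, 12 genes (0.161%) were highest and 75 (1.01%) lowest in S2.

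Of the 10 genes highest in S2 relative to both neighbours, the most abundant was Acp5, a tartrate-resistant acid phosphatase, at 325 CPM in S1, 507 CPM in S2 and 332 CPM in S3. Pnp2, a purine nucleoside phosphorylase, was at 6.51, 13.7 and 7.97 CPM, and with antibody counts scaled by cDNA depth its ratios turned to 0.917 over S1 and 1.31 for S3 over S2. Mbd4, a glycosylase that repairs mismatches at CpG sites, was at 7.48, 12.1 and 6.05 CPM. The genes lowest in S2 included Apoh, Itih2 and Meg3, which were at 784, 1110 and 2848 CPM in the hepatocyte-rich cells. With the borders moved inwards by 25%, their ratios of S2 over S1 turned to 1.14, 1.21 and 2.56. Hepatocyte markers moved with them: their sum was 847 CPM in S1, 538 CPM in S2 and 1725 CPM in S3. The part of free hepatocyte RNA in these low levels was not tested.

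The CD71-lower cells shared the Ter119 limits with S2 but had a median of 3734 UMIs and 25.6% of UMIs in globins. Of 5979 genes, 354 (5.92%) were higher in S2 and 386 (6.46%) lower, and with globin UMIs in the total 814 were higher and 165 lower. Per cell 4236 genes had more UMIs by the limit and 28 fewer, so the directions below are again those of composition. Tfrc was at 363 CPM in S2 and 359 CPM in the CD71-lower cells (ratio 1.01, 0.893 to 1.15). S2 cells, which the rule chose for more CD71 protein, had 2.28 Tfrc UMIs per cell against 1.33 (1.71-fold). All non-globin UMIs per cell differed by about as much, at 1.69-fold. Alas2 was lower in S2 by CPM, at 625 against 1369 CPM (0.457, 0.427 to 0.489), and within the limit per cell, at 3.92 against 5.07 UMIs (0.774). By CPM also lower were 6 of 14 ubiquitin genes, 4 of 20 transcription factors (Foxo3, Tfdp2, Cbfa2t3 and Bach1) and 3 of 14 autophagy genes (Gabarapl2, Map1lc3b and Fundc1). With globin UMIs in the total 3, 2 and 0 were lower, and 1 ubiquitin gene was higher. With antibody counts scaled by cDNA depth 3, 5 and 1 were higher and 1 of each list lower. The directions of these lists did not hold there. DNA replication genes were higher in S2 in 4 of 26 cases, Cdc6 at 2.16-fold, Cdc45 at 2.0-fold, Ccne2 at 1.60-fold and Slbp at 1.53-fold. The higher replication genes numbered 16 with globin UMIs in the total, 17 by the mean over cells and 11 thinned. They numbered 14 with inner borders and 8 with scaled antibody counts. Over all genes the higher calls in these settings numbered 814, 886, 250, 569 and 330. The replication list kept its 26 genes in each setting. How many of all genes were compared thinned, with inner borders or with scaled antibody counts is not given here, so shares cannot be compared there. In UMIs per cell all 26 replication genes were higher, as were 12 transcription factors, 6 autophagy and 4 ubiquitin genes, and 1 ubiquitin gene was lower. Among single genes, Xpo7 was at 30.4 CPM in S2 and 192 CPM in the CD71-lower cells, Tmcc2 at 183 and 733 CPM and Bpgm at 111 and 444 CPM. With antibody counts scaled by cDNA depth the Alas2 ratio turned to 1.13, and the sum of α-globin turned from 0.526 to 1.22, so neither direction held there. Whole lists moved too. Heme enzymes went from 0 higher and 1 lower to 5 and 0 of 8, and ribosome biogenesis genes from 1 and 0 to 0 and 17 of 22. Heat-shock genes went from 0 and 0 to 0 and 5 of 11, and genes of glucose use from 1 and 2 to 0 and 8 of 16. Over all genes 330 were higher and 804 lower.

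The cells of S2 differed among themselves. Ter119 and CD71 set the S2 limits, so tertiles by them describe the gate. Split into tertiles of 438 cells by Ter119, the lowest, middle and highest had 6.93%, 12.8% and 21.1% of their UMIs in globins and Alas2 levels of 287, 625 and 1170 CPM (7.71% of 4941 genes were higher and 8.12% lower in the highest than in the lowest tertile). Split by cKit, which the rule did not use, the globin share was 26.2% in the lowest tertile, 15.5% in the middle and 5.69% in the highest. Alas2 was at 1502, 805 and 239 CPM in the same order. Between the outer cKit tertiles 26.3% of 5127 genes were higher and 12.7% lower with high cKit. Split by CD71, the globin share was 14.3%, 13.6% and 11.2%.

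**Figure D4:**
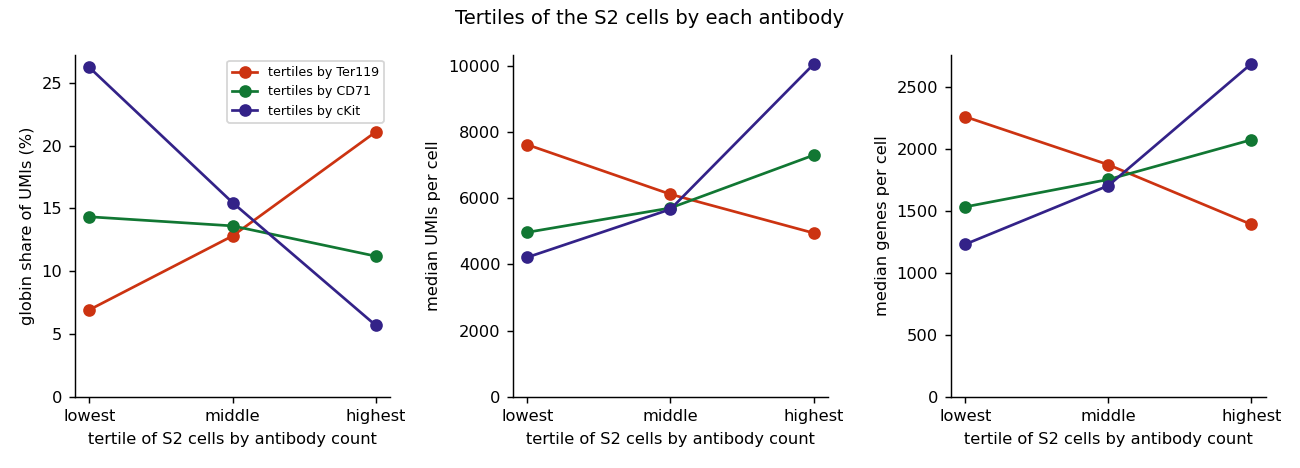
Globin share of UMIs, median UMIs per cell and median genes per cell in the tertiles of S2 by Ter119, CD71 and cKit, with 438 cells in each tertile. Globin share was 6.93%, 12.8% and 21.1% with increasing Ter119 and 26.2%, 15.5% and 5.69% with increasing cKit, while CD71 gave a flatter line.

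With high cKit, 20 of 21 ribosome biogenesis genes and 7 of 11 heat-shock genes were higher, and 8 of 8 heme enzymes, 9 of 12 skeleton genes, 10 of 13 ubiquitin genes and 11 of 19 transcription factors were lower. With high Ter119 the directions were opposite, with 5 of 8 heme enzymes and 9 of 13 ubiquitin genes higher and 10 of 21 ribosome biogenesis genes lower. Because the rule used Ter119, this split is no independent support for the split by cKit. Tcp11l2 was at 110 CPM with low cKit, 24.0 CPM in the middle and 7.85 CPM with high cKit. Rrp1b, a nucleolar protein, was at 6.68, 13.9 and 47.6 CPM in the same order. By Ter119, Slfn14 was at 3.23, 14.4 and 47.0 CPM and Xpo7 at 10.8, 28.0 and 64.9 CPM from lowest to highest. DNA replication genes hardly differed by Ter119, with none of 26 past the limit.

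The depth of the cells moved with these splits. Median UMIs per cell were 7616, 6118.5 and 4947.5 by Ter119, 4969, 5704 and 7298.5 by CD71, and 4213.5, 5665.5 and 10045.5 by cKit. Over the 1314 S2 cells, globin share had a Spearman coefficient of 0.579 with Ter119, -0.080 with CD71, -0.713 with cKit and -0.769 with CD44. Non-globin UMIs had coefficients of -0.359, 0.245, 0.716 and 0.805 with the same antibodies. The antibody and cDNA counts of a cell share its barcode and size, and the part of depth in the cKit split was not tested.

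Globins were the largest difference in amount. Adult β-globin was at 19705 per 1000000 of all UMIs in S1, 94594 in S2 and 259038 in S3 (4.80-fold and 2.74-fold). α-Globin was at 7438, 33530 and 87115. In the hepatocyte-rich and lineage-antibody-positive cells adult β-globin was at 5992 and 6274 and α-globin at 2018 and 2082, the measure of free RNA used here, which was not subtracted and is largest relative to S1. On these sums the ratio of α- to β-globin UMIs was 0.378, 0.355 and 0.336. After thinning each cell to 2000 UMIs, which left out no cell, a median S2 cell had 67 α-globin UMIs with the 10th and 90th percentiles at 19 and 215.7. Of S2 cells, 852 (64.8%) were above the 90th percentile of S1 (44 UMIs) and 634 (48.3%) were at or above the 10th percentile of S3 (72 UMIs). Without thinning a median S2 cell had 33970 α-globin UMIs per 1000000.

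**Figure D5:**
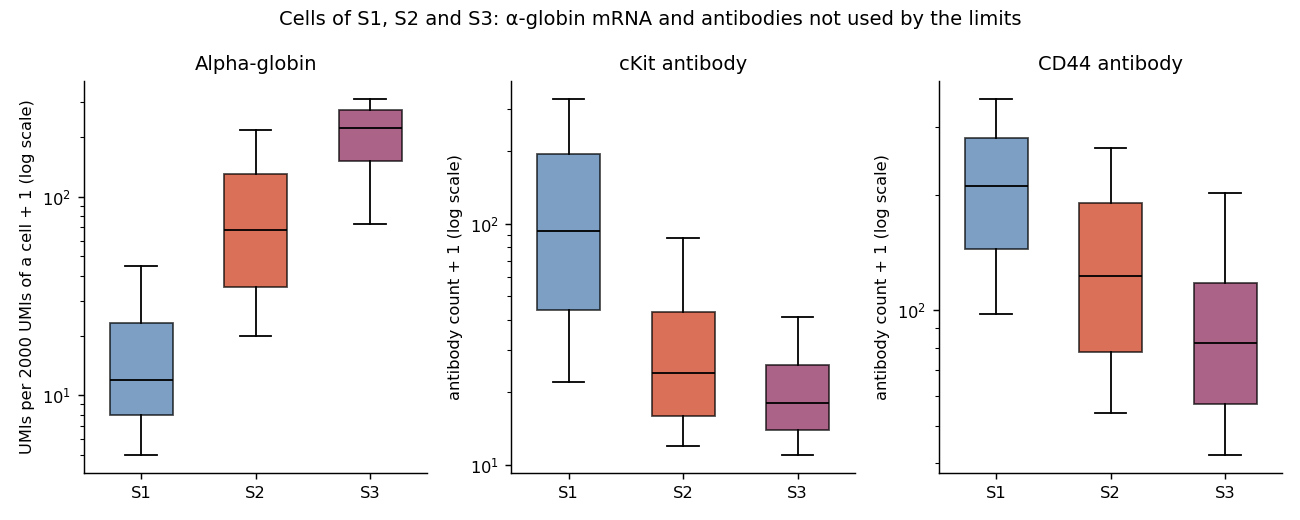
Box plots over cells of α-globin UMIs after thinning to 2000 UMIs per cell and of cKit and CD44 antibody counts in S1, S2 and S3 (log axes, 1 added, boxes over the quartiles, line at the median, whiskers at the 10th and 90th percentiles). The α-globin medians are 11, 67 and 220.5 UMIs and the cKit medians 92.5, 23 and 17 counts.

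The embryonic β-like globin Hbb-bh1 was unevenly spread. It was at 39.4 per 1000000 of all UMIs in S1, 353 in S2 and 1097 in S3 (8.96-fold and 3.11-fold), and at 0.404, 2.54 and 6.20 UMIs per cell, against 0.134 and 0.148 in the reference cells. In S2, 560 cells (42.6%) had a UMI, yet the 63 cells (4.80%) with 10 or more held 72.4% of all its UMIs, and in S3 80 cells (9.39%) held 82.5%. The rule removes cells where the other embryonic gene, Hbb-y, exceeds adult β-globin, so Hbb-y itself is no finding. It was at 1.48, 1.47 and 1.76 UMIs per cell in S1, S2 and S3, near the 1.47 and 1.23 of the reference cells. The ζ-globin gene Hba-x had 172 UMIs in the whole of S2.

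Markers of other cell types had low levels in S2. The 8 hepatocyte markers summed to 538 CPM (3.38 UMIs per cell, Afp the most abundant at 173 CPM), against 95902 CPM in the hepatocyte-rich cells, and 88.6% of S2 cells had at least 1 of these UMIs. Neutrophil and granule markers summed to 118 CPM (S100a8 at 24.98 CPM), against 10023 CPM in the lineage-antibody-positive cells. In the hepatocyte-rich cells, which should lack them, they were at 78.5 CPM. In UMIs per cell S2 was not above these cells (0.743 against 0.896), nor in the share of cells with a UMI (49.3% against 53.7%), so their UMIs in S2 are not read as expression. Megakaryocyte markers summed to 73.4 CPM (Pf4 at 27.2 CPM), against 3658 CPM in the lineage-antibody-positive and 445 CPM in the hepatocyte-rich cells. Macrophage markers summed to 11.4 CPM with C1qc the most abundant, and lymphocyte markers to 4.37 CPM, with Cd79a and Cd3e at 0 UMIs. Mast cell markers had 17 UMIs in all, with Gzmb, Mcpt1 and Mcpt4 at 0. Of 502 endothelial marker UMIs 436 were from Egfl7 and of 231 stellate marker UMIs 217 were from Dlk1.

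Promoter sequence is shown for the 3 markers and for Slfn14, the gene with the largest ratio of S2 over S1, because GATA1 and KLF1 control many erythroid genes through short motifs. GATA motifs were searched as the letters GATA preceded by A or T and followed by A or G, and CACC motifs as CCNCNCCC, on both strands, and matches could overlap. Each line gives the 120 bases before the RefSeq start of the gene in GRCm38.p6, read 5′ to 3′ on the strand of the gene, with matches in capitals.
Alas2, chrX:150547297-150547416, plus strand: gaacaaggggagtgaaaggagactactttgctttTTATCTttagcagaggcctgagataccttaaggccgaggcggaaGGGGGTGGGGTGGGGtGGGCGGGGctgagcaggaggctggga
Hemgn, chr4:46404184-46404303, minus strand: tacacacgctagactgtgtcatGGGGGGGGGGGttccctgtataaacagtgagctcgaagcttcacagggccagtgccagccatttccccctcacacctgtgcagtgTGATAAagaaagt
Tfrc, chr16:32608776-32608895, plus strand: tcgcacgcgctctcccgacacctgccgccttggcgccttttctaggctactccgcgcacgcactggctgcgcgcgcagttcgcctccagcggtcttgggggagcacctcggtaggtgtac
Slfn14, chr11:83286727-83286846, minus strand: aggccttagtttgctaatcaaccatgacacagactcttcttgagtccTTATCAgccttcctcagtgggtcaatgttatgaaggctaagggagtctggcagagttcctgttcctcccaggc

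Alas2, Hemgn and Slfn14 each had 1 GATA match in these stretches. Tfrc had none in the 250 bases before this start and 3 CACC matches there, outside the stretch printed. Over all promoters of 27018 genes, 29.8% had a GATA match in the 250 bases before any of their starts, 48.5% a CACC match and 10.9% both. Among the genes compared between S1 and S2 that matched a promoter entry (5401 of 6813 with a symbol) the shares were 19.2%, 67.1% and 11.8%. Of the 20 genes with the largest ratio of S2 over S1, 15 matched, of which 7 (46.7%) had a GATA match, 10 (66.7%) a CACC match and 6 (40.0%) both. Of the 20 with the smallest ratio, 13 matched, of which 3 had a GATA and 11 a CACC match. These sets were ranked on the same counts and the matches are a description of the letters in the windows.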

How the data were processed

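Both libraries, cDNA and antibody, were used for 7863 cells. Per the labels and the methods, the authors mapped cDNA reads to mm10 with Cell Ranger and deposited raw UMI counts per gene and cell, before their doublet and quality filters. Antibody reads were assigned to tags and deposited as raw counts, of which 1.05% matched no tag, and whether they were collapsed by molecular identifier is not given in the sources used here. The cDNA library held 58606632 UMIs over 27998 genes (17768 with a UMI) and the antibody library 10571003 counts (median 1092 per cell).

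Cells were grouped by the limits given in the report. UMIs were summed over the cells of a population and divided by its non-globin UMIs. Levels have exact Poisson and ratios exact conditional 95% intervals, which cover counting error only. Genes with at least 100 UMIs over both populations were compared, with 1.5-fold as the limit. No count model was fitted, because there is 1 library. Hepatocyte-rich cells had at least 2% of UMIs from 8 hepatocyte markers and a Ter119 count below 25. Lineage-antibody-positive cells were above the lineage limit and below the Ter119 and CD71 limits of S2. For cells and α-globin, counts were thinned to 2000 UMIs (seed 7). Doublets were called with Scrublet in scanpy 1.11.5 at an expected rate of 6% and kept, except as an alternative. Python 3.11.15, numpy 2.4.6, scipy 1.17.1 and pandas 2.3.3 were used. The ratios, their intervals and the 1.5-fold calls were tested on simulated Poisson counts, and the thinning by its totals. The other steps were not tested on simulated data.

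Genes were named as follows: the markers, antibody targets and globins, the 8 largest and 8 smallest ratios of each step, the 10 genes highest and lowest in S2, the 10 most abundant, up to 2 with the largest and 2 with the smallest ratio per gene list and step (28 lists), and the 5 extremes between outer tertiles by Ter119 and cKit. Members and lists were chosen with earlier results of these data known. Where a list had 5 or fewer genes past the limit, others of them were also named, after their values were seen. Gene models without a symbol were counted but not named. Ahsp was not analysed here, and some named items are not reported here. Alternatives were another denominator, UMIs per cell, the mean over cells, thinning, doublets left out, borders moved inwards by 25%, antibody counts scaled by cDNA UMIs, the Hbb-y condition left out, minimums of 50, 400 and no UMIs above the floor of 3, and a 2-fold limit.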

Additional observations from a re-analysis of the deposited data

How the results depend on the processing

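Counts of genes past the limit depended on the denominator, the minimum and the fold. With all UMIs as denominator, 325 genes were higher and 1793 lower in S2 than in S1, 257 higher and 3057 lower in S3 than in S2, and 814 higher and 165 lower in S2 than in the CD71-lower cells. In UMIs per cell the counts were 102 and 5122, 124 and 4943, and 4236 and 28. With a minimum of 400 UMIs they were 307 and 434, 353 and 188, and 50 and 94, with no minimum above the floor 1184 and 2893, 2435 and 1468, and 916 and 3485, and with a 2-fold limit 177 and 212, 258 and 37, and 75 and 90. A minimum of 50 UMIs gave 612 and 710 against the CD71-lower cells. The mean over cells gave 1659 lower in S2 than in S1, 1439 lower in S3 than in S2 and 886 higher in S2 than in the CD71-lower cells. Thinning gave 579 lower in S2 than in S1 (435 higher, 42.9% of those called, against 31.5%) and 200 lower in S2 than in the CD71-lower cells. With the minimum of 400 UMIs, which leaves fewer genes to compare, 41.4% of the S2 over S1 calls were higher. The numbers of genes compared after thinning, with inner borders and with scaled antibody counts are not given here. Their part in these changes was not tested. Leaving out doublets gave 978 lower in S3 (39.9% of calls higher, against 52.7%). Moving the borders inwards gave 685 S2 cells, 569 genes higher than in the CD71-lower cells, and median CD44 counts of 220 in S1, 131 in S2 and 86 in S3. Antibody counts scaled by cDNA UMIs gave 598 lower in S2 than in S1, 1430 lower in S3 than in S2 and 804 lower in S2 than in the CD71-lower cells, median cKit counts of 38.0 in S1, 22.0 in S2 and 21.0 in S3, and median CD44 counts of 128 in S1, 115 in S2 and 96.3 in S3.

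In UMIs per cell only 4 of 221 named genes were examined for S2 over S1, and 4 of 207 for S3 over S2. Turns on that scale are therefore not listed in full. Of the single genes examined, the S2 over S1 ratio turned for Apoh (1.01 thinned, 1.14 with inner borders), Itih2 (1.21 with inner borders), Meg3 (2.56 with inner borders), Tfrc (0.978 per cell) and, with scaled antibody counts, Meg3 (1.25), Mms19 (0.794), Napepld (0.918), Pnp2 (0.917), Stat5a (1.08) and Tex264 (1.21). Among the genes examined, the S3 over S2 ratio turned for Hemgn (0.969 per cell) and, with scaled antibody counts, Cdk6 (0.730), Pnp2 (1.31) and Prelid2 (0.915). Against the CD71-lower cells, Alas2 (1.13) and α-globin (1.22) turned with scaled antibody counts. The cause of these changes was not tested. No paired analysis was possible because there is 1 library of cells. Depth limits Kit, Stat5a and other genes with few UMIs in S2, and 1 pool of embryos gives no estimate of the spread between animals.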

Other observations

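By UMIs from the 3′ ends of transcripts, the most abundant non-globin mRNAs of S2 were mitochondrial mt-Atp6 (14393 CPM) and mt-Co3 (10770 CPM), the ferritin chains Ftl1 (10533 CPM) and Fth1 (10203 CPM), the ribosomal protein genes Rplp0 (8790 CPM) and Rpl13 (8034 CPM), and Car2, an erythroid carbonic anhydrase (7421 CPM). Of 77 nuclear genes of oxidative phosphorylation, 1 was lower (Atp5g2, 0.619-fold) and 0 higher in S2 than in S1, and none passed the limit between S2 and S3 by CPM. With all UMIs as denominator 3 of the 77 were lower in S2 than in S1 and 27 in S3 than in S2, and in UMIs per cell 46 and 65. Over all genes 1793 of 7086 and 3057 of 6431 were lower with all UMIs as denominator, and 5122 and 4943 in UMIs per cell. Of 13 genes of the mitochondrial genome, 1 was lower in S2 than in S1, namely mt-Nd6 (19.5 to 10.3 CPM), against 11 in UMIs per cell, and mt-Co3 was at 9905, 10770 and 10247 CPM in S1, S2 and S3. These values are shares of the non-globin mRNA, and per cell mt-Co3 had 98.8, 67.6 and 37.7 UMIs.

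Of 9 genes of the ATF4 response compared between S2 and S3, 3 were higher and 1 lower in S3. These counts turned to 2 and 4 with all UMIs as denominator, and to 1 and 5 in UMIs per cell. Eif2ak1, the heme-regulated kinase that phosphorylates eIF2α, was at 52.2 CPM in S1, 93.2 CPM in S2 and 214 CPM in S3, and Ppp1r15a, a subunit of the phosphatase that reverses this mark, at 69.5, 235 and 693 CPM. Asns, which makes asparagine and is a target of ATF4, was at 348, 446 and 287 CPM. Gadd45a, a growth-arrest gene, was at 132, 247 and 792 CPM, and Btg2, an antiproliferative gene, at 93.9, 275 and 421 CPM. Of 8 genes of DNA methylation, 2 were higher in S2 than in S1, Gadd45a and Mbd4, but 1 with all UMIs as denominator and none with scaled antibody counts or in UMIs per cell, where 4 were lower. Dnmt1, the maintenance methyltransferase, was at 92.6, 112 and 114 CPM. Among 12 genes of nuclear condensation, Lbr, a receptor of the inner nuclear membrane, was at 156, 295 and 465 CPM, and the linker histone gene H1f0 at 88.7, 96.0 and 45.2 CPM.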
